A study of Caenorhabditis elegans with 2 samples.

Results

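Among the strongest binding sites of M03D4.4, a predicted zinc finger protein of the nematode Caenorhabditis elegans, 5 lay at the promoters of the protein-coding genes K12H4.5, atx-2, tasp-1, T13C5.6 and nmad-1, away from the main classes of small RNA genes. The rule, which all 5 genes met, asked for 1 of the 70 strongest nuclear peaks in the promoter of a gene. It also asked that no tRNA, rRNA, snRNA, snoRNA or miRNA gene lie within 500 bp of the summit. Unclassified noncoding RNA genes were not counted, and the T13C5.6 summit lies inside one of 147 bases, so with that class counted 4 of the 5 would be free of such genes. The promoter window ran from 1000 bp before to 500 bp after the annotated 5' end. Applied to all 19973 nuclear protein-coding genes, with each summit given to the gene with the nearest 5' end, that rule found 13 genes, and the 5 described here are among them. Given to genes in the same way, the top-70 promoter peaks of any kind, small RNA genes included, went to 25 genes. The rule itself does not set the 5 apart from the rest of the 13. Among that rest, rpl-3 and ftt-2 had stronger peaks than each of the 5 but K12H4.5. Peak signal and rank were part of the rule, so the height of the members' peaks is a description and was not tested.

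Sonicated chromatin was precipitated with an antibody against GFP and the recovered DNA was sequenced (ChIP-seq). The animals were of strain OP696, genotype unc-119(tm4063) III; wgIs696, whose transgene expresses M03D4.4 with a GFP-FLAG tag at its C terminus. Both samples were whole embryos of mixed stage and mixed sex, 2 h after synchronization by egg bleaching, and they form 1 group of 2 biological replicates. Both replicates carried the same mutation and the same transgene, and there was no second condition. The labels give neither the copy number of the transgene nor the state of the endogenous gene. Whole embryos mix all tissues, so a peak cannot be placed in a cell type. Without peaks of a different tagged factor to compare with, sites particular to M03D4.4 and sites recovered with any tagged factor cannot be told apart. The deposited files hold peaks and no read counts, and the sequencing depth is unknown.

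A promoter is the DNA around the start of a gene where transcription factors and RNA polymerase assemble. In C. elegans many neighbouring genes on the same strand are transcribed together as operons, and others stand back to back and share the DNA between their starts. The outermost 5' ends in the annotation are often sites of trans-splicing, so the true start of transcription can lie upstream of them. C2H2 zinc finger proteins bind DNA through small folded units that each read a few bases.

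The 5 genes have different functions. K12H4.5 encodes a small uncharacterized protein. The product of atx-2 is the worm ataxin-2, an RNA-binding protein that acts in translation and germline development and whose human relative is altered in a form of spinocerebellar ataxia. The gene tasp-1 encodes a homolog of taspase, a protease that in mammals cleaves the histone methyltransferase MLL and the general factor TFIIA. T13C5.6 encodes a protein with a phosphatidic acid phosphatase type 2 domain, a fold of membrane enzymes that remove phosphate from lipids. The gene nmad-1 encodes a demethylase of the AlkB family named for its action on N6-methyladenine in DNA.

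The DNA under each summit is given below because the letters shared among these sites are described further on. Each sequence is 101 bases of the RefSeq genome on WBcel235, the assembly also called ce11, with the summit at the middle base, read 5' to 3' on the strand of the gene. Capitals mark CGCACA on either strand, so that TGTGCG is the same word on the other strand, and in T13C5.6 also GTTCNANNC, which appears there on the other strand. The regions are III:8043911-8044011 plus strand for K12H4.5, III:10461275-10461375 plus strand for atx-2, III:10759181-10759281 plus strand for tasp-1, X:6207817-6207917 minus strand for T13C5.6 and III:5555070-5555170 minus strand for nmad-1.
K12H4.5: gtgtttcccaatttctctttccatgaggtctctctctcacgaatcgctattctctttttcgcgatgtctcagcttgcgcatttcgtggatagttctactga
atx-2: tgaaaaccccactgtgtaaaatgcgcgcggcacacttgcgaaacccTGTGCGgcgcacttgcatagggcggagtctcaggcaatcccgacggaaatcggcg
tasp-1: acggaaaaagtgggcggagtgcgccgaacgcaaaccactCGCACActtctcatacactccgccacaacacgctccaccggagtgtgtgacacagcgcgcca
T13C5.6: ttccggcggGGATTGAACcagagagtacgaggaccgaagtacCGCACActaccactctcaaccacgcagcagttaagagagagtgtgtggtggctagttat
nmad-1: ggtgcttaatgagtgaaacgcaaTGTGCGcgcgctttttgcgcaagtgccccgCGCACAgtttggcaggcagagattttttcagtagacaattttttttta

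K12H4.5 had the strongest peak of the 5. The signal, which is the authors' own deposited value per peak, was 773 in replicate 1 and 683 in replicate 2, a mean of 728 ± 63.4 (SD, n = 2). The authors' list of reproducible peaks, selected by irreproducible discovery rate (IDR), carries the signals of the pooled replicates, and its signal there was 1458. That was 7.1 times the median of 205 over the 1423 nuclear IDR peaks, which ran from 147 to 2198. The peak stood at rank 7 among nuclear peaks in the IDR list and in the list of each replicate.

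The peak of atx-2 had signals of 621 and 537 in replicates 1 and 2, a mean of 579 ± 59.4 (SD, n = 2). Its IDR signal was 1155, or 5.62 times the median. It too held 1 rank throughout, rank 14 in the IDR list and in both replicates, so neither of the 2 strongest members changed place between replicates.

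The peaks of tasp-1 and T13C5.6 were alike in height. That of tasp-1 had signals of 518 and 462, a mean of 490 ± 38.9 (SD, n = 2), and an IDR signal of 981 at rank 18. That of T13C5.6 had signals of 519 and 442, a mean of 481 ± 54.2 (SD, n = 2), and an IDR signal of 961 at rank 22. Their ranges over the replicates overlapped, and their order turned between the lists, since tasp-1 stood at rank 23 in replicate 1 and rank 21 in replicate 2 where T13C5.6 stood at 22 and 23.

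The peak of nmad-1 was the lowest, with signals of 425 and 374 and a mean of 399 ± 36.3 (SD, n = 2). Its IDR signal of 798 was 3.88 times the median, at rank 45, with ranks 47 and 48 in the replicates. Apart from tasp-1 and T13C5.6, no neighbours in the order of the 5 members overlapped in their replicate values.

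**Figure D1:**
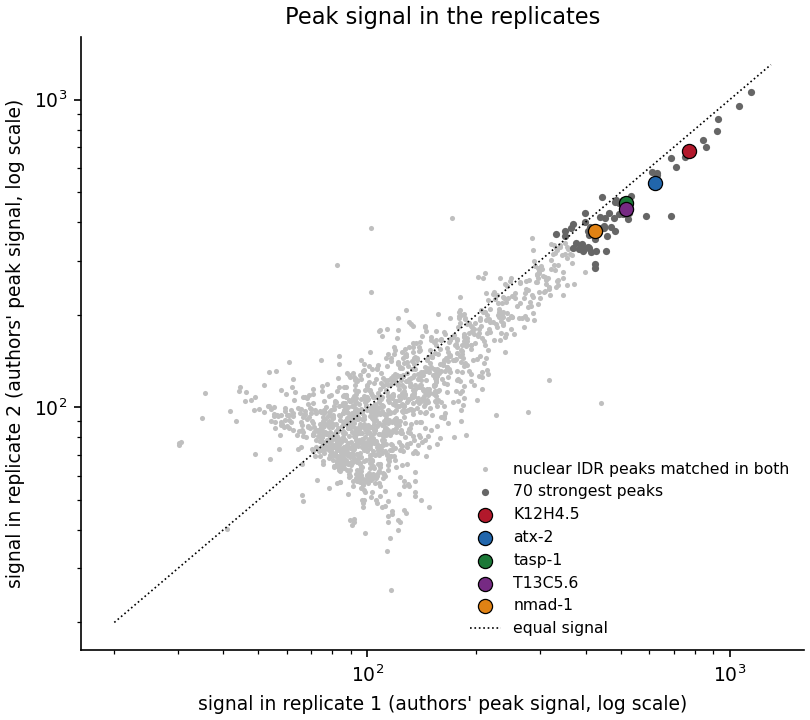
Signal of each nuclear IDR peak in replicate 1 (x axis) and replicate 2 (y axis), in the authors' units on log scales, with the 70 strongest peaks in dark grey, the 5 members in colour and a dotted line of equal signal. All 5 members lie just below the line, with K12H4.5 at 773 and 683 and nmad-1 at 425 and 374 at the ends of their range.

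All 5 members had a lower signal in replicate 2, and by nearly the same factor. The log2 ratio of replicate 2 to replicate 1 was -0.18 for K12H4.5, -0.21 for atx-2, -0.16 for tasp-1, -0.23 for T13C5.6 and -0.19 for nmad-1. The median over the 1418 nuclear IDR peaks matched in both replicates was -0.19, with an SD of 0.46 between peaks, and over the 70 strongest the SD was 0.16. The offset between replicates was thus that of the lists as a whole, and the members' spread of -0.23 to -0.16 lay within the range of -0.72 to 0.14 of the 70 strongest. The deposited −log10 q-value stood at the maximum of its list for every member, at 2.35 in the IDR list, 2.62 in replicate 1 and 2.09 in replicate 2, so it does not order them.

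Other rule genes stood between the members in signal. Below K12H4.5 came rpl-3, a ribosomal protein gene, at 1317, and just above atx-2 stood ftt-2, a 14-3-3 gene, at 1210. The gene ears-2, for a glutamyl-tRNA synthetase, stood at 977 between tasp-1 and T13C5.6. T13C5.6 was followed by idhg-1, an isocitrate dehydrogenase gene, at 939. On either side of nmad-1 were rpl-15 at 935 and Y17G9B.5 at 714. At the edge of the rule, spat-3 was the last gene inside with a signal of 698 at rank 70, and C16C10.4 was the first outside with 678 at rank 74.

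The 4 members K12H4.5, atx-2, tasp-1 and nmad-1 lie on chromosome III and T13C5.6 lies on X. Of the 13 rule genes 6 were on chromosome III, as were 11 of the 70 strongest peaks, 16.9% of the 710 IDR promoter peaks and 13.2% of nuclear protein-coding genes. Over all nuclear protein-coding genes, 4.69% had an IDR summit in the promoter window, and all 5 members do by the rule.

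The summits of atx-2 and tasp-1 lay close to the start of the gene. At atx-2 the summit stood 64 bp upstream of the annotated 5' end, at position 10461325, in the IDR list and in both replicates. At tasp-1 it stood 76 bp upstream, at 10759231, with 74 and 72 bp in replicates 1 and 2. Both intervals, of 374 and 342 bp, covered the 5' end of the gene.

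Farther out were T13C5.6 and nmad-1. The T13C5.6 summit, at 6207867 on X, was 180 bp upstream, and 173 and 183 bp upstream in replicates 1 and 2. Its 389 bp interval reached just past the 5' end in the IDR list but ended 2 and 4 bp short of it in the replicates. The nmad-1 summit, at 5555120, was 186 bp upstream, and 186 and 180 bp in the replicates, and its interval of 295 bp ended 40 bp before the gene.

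Among the members K12H4.5 stood apart in position. Its summit, at 8043961, was 526 bp upstream of the gene, and 527 bp in each replicate, with the edge of the 359 bp interval still 338 bp from the 5' end. Of the IDR promoter summits upstream of their gene, 79.6% were nearer than that, against 9.9% for atx-2, 12.1% for tasp-1, 36.9% for T13C5.6 and 38.5% for nmad-1. The median over IDR promoter peaks was 207 bp. Of the other rule genes, ftt-2 and spat-3 had summits about as far out as K12H4.5, at 520 and 581 bp upstream. At K12H4.5 the annotated 5' end is also the first base of the start codon, so the annotation holds no leader sequence there. The same is so at atx-2, whereas the first start codon lies 18 bp into nmad-1, 68 bp into T13C5.6 and 460 bp into tasp-1.

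**Figure D2:**
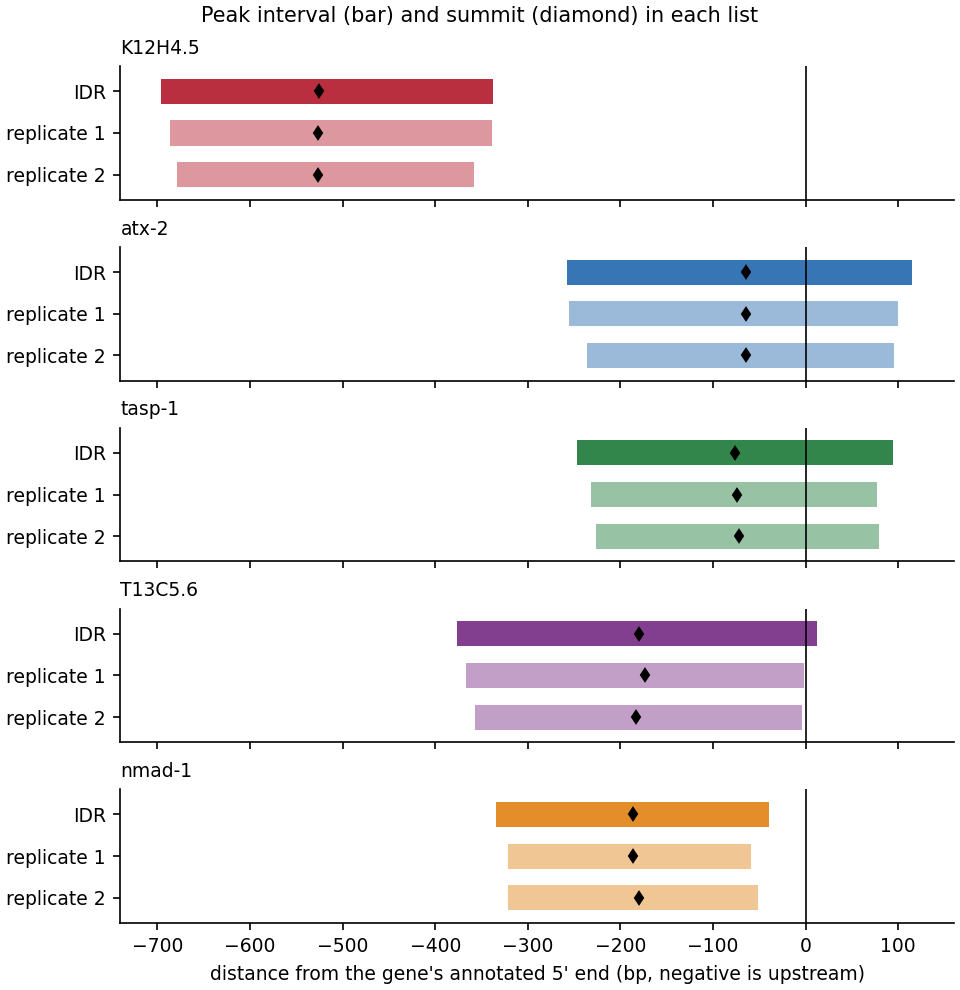
Interval (bar) and summit (diamond) of each member's peak in the IDR list and in each replicate, along the distance in bp from the annotated 5' end of the gene, which is the vertical line at 0. The summits lie 64 bp upstream at atx-2 and 526 bp upstream at K12H4.5, and the 3 lists place each summit within 10 bp of one another.

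The members' peaks were narrower than most IDR peaks, as were most of the 70 strongest, and their summits moved little between replicates. Widths ran from 295 bp at nmad-1 to 389 bp at T13C5.6 in the IDR list, where 77.6% of peaks had the single width of 430 bp and the median of the 70 strongest was 345 bp. K12H4.5, atx-2 and T13C5.6 were wider than that median, and tasp-1 and nmad-1 narrower. In the replicates the widths were 349 and 322 bp at K12H4.5, 357 and 333 bp at atx-2, 310 and 306 bp at tasp-1, 366 and 354 bp at T13C5.6 and 263 and 271 bp at nmad-1. The summits of the replicates were 0 bp apart at K12H4.5 and atx-2, 2 bp at tasp-1, 6 bp at nmad-1 and 10 bp at T13C5.6, where the median shift was 22 bp over all IDR peaks and 6 bp over the 70 strongest. The gap to the next summit in the IDR list ran from 9865 bp at nmad-1 to 29062 bp at atx-2. Over all nuclear IDR peaks the median of this gap was 15536 bp. In the relaxed lists, which hold weak peaks and background, the pooled replicates gave a further peak within 1500 bp only at atx-2, where it lay 636 bp from the summit with a signal of 68.4. Near T13C5.6 weak peaks appeared in replicate 2 only, 203 and 1300 bp from the summit, with signals of 29.9 and 22.8.

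The annotation around the summits was read next for genes that share the same DNA. No tRNA, rRNA, snRNA, snoRNA or miRNA gene lay within 2000 bp of any of the 5 summits. A divergent neighbour was counted where the summit also lay within 1000 bp upstream of a protein-coding gene on the other strand. The summit had to lie upstream of its own gene too, as at all 5 members. Any promoter summit past that 5' end was not counted but stayed in the background. A divergent neighbour was found at 3 members, atx-2, tasp-1 and nmad-1, against a background of 28.0% of the 710 IDR promoter peaks and against 8 of the 13 rule genes. In all 3 cases the promoter window of the neighbour holds the summit too, and the peak lists cannot say which of the paired genes the site serves.

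At nmad-1 the pair was closest. The gene hach-1, for a mitochondrial 3-hydroxyisobutyryl-CoA hydrolase of valine breakdown, starts 330 bp from the summit on the other strand, and 516 bp separate the 5' ends. Downstream of hach-1, after a gap of 46 bp on the same strand, lies rpc-2, which RefSeq describes as a DNA-directed RNA polymerase subunit beta. The next gene after nmad-1 on its own strand is F09F7.6, which encodes a ferritin, 1353 bp on.

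The other pairs were wider, with the summit close to the member. At tasp-1 the divergent gene is K01G5.10, for a haloacid dehalogenase-like hydrolase, 709 bp from the summit, with 785 bp between the 5' ends. K01G5.10 is followed without a gap by rnf-113, a putative ubiquitin ligase gene, and 93 bp later by hpl-2, which encodes a heterochromatin protein 1 homolog. At atx-2 the divergent gene is ecps-1, which encodes a protein with an Ecm29-type proteasome domain, 774 bp from the summit, with 838 bp between the 5' ends.

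K12H4.5 and T13C5.6 had no divergent protein-coding start within 1000 bp. On the other strand from K12H4.5 the nearest 5' end is that of K12H4.6, an uncharacterized gene, 1086 bp from the summit. Upstream of T13C5.6 the nearest protein-coding gene, C14F11.7, runs in the same direction and ends 293 bp from the summit.

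Close downstream neighbours on the same strand, the arrangement of operons, were found at 3 members. Operon annotation was not used here, so only strands and gaps are given. K12H4.5 is followed after 236 bp by spcs-3, for a subunit of the signal peptidase that trims secreted proteins. After a gap of 102 bp comes K12H4.3, for a homolog of the ribosome assembly factor BRX1, and after 99 bp more K12H4.2. The gene tasp-1 is followed after 109 bp by dpy-28, a condensin subunit gene that acts in chromosome segregation and X chromosome dosage compensation. T13C5.6 overlaps the next gene, mtp-18 for a mitochondrial fission process protein, by 44 bp. Of protein-coding genes in general, 20.1% have a same-strand protein-coding neighbour within 500 bp downstream. This count was added after the neighbours had been seen. After atx-2 the next gene, D2045.5, lies 6 bp on but on the other strand.

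**Figure D3:**
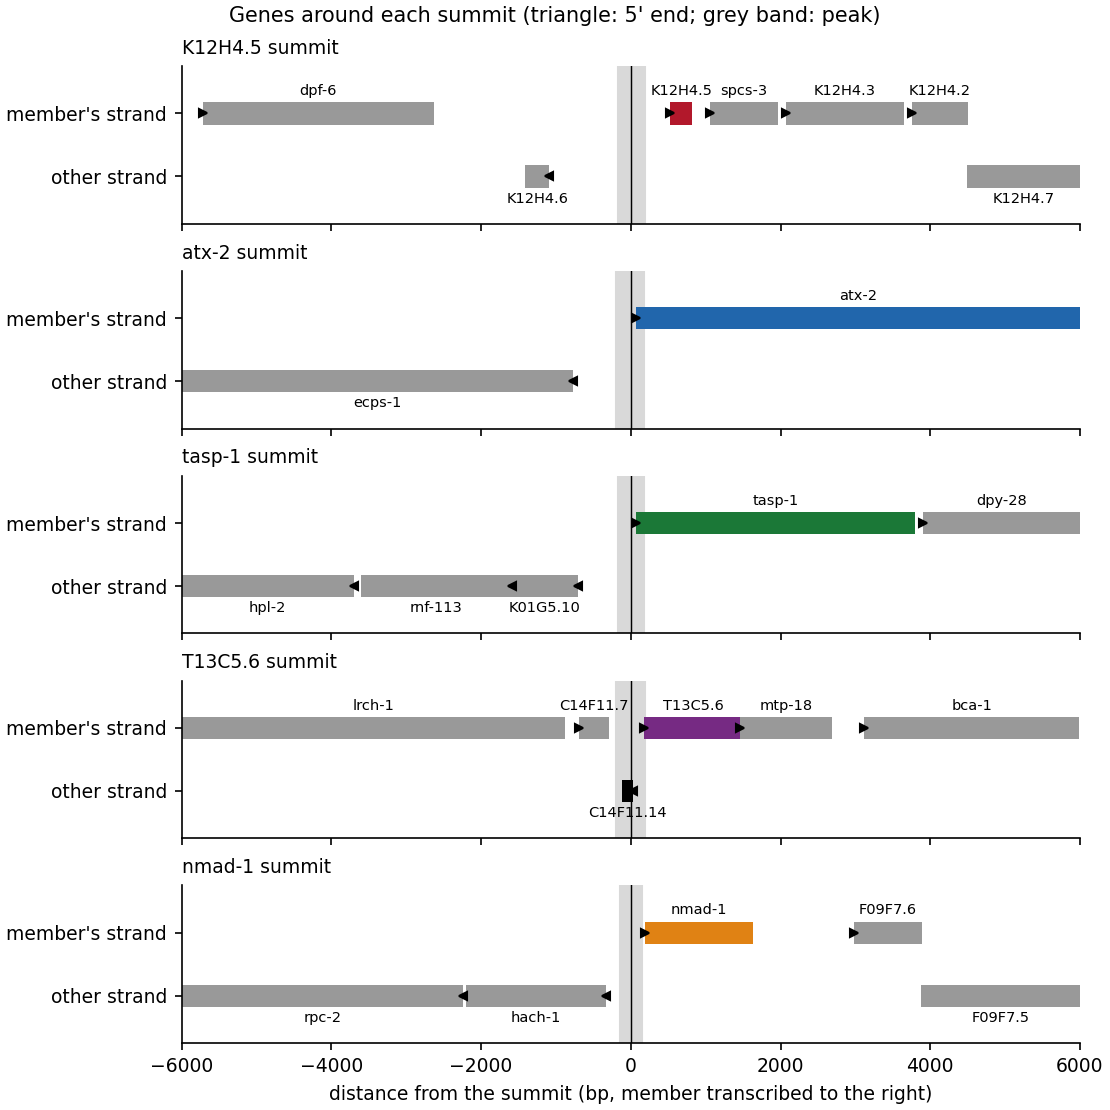
Genes within 6000 bp of each member's summit, with the member transcribed to the right on the upper row, genes on the other strand below, triangles at 5' ends and the peak as a grey band. The divergent starts of hach-1 (330 bp), K01G5.10 (709 bp) and ecps-1 (774 bp) lie to the left of the nmad-1, tasp-1 and atx-2 summits, and the noncoding gene C14F11.14 lies under the T13C5.6 summit.

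The T13C5.6 summit lay inside a gene of another class. C14F11.14 (WBGene00197710), which the annotation calls an unclassified noncoding RNA of 147 bases, spans X:6207835-6207981 on the plus strand, opposite to T13C5.6, and the summit stood 32 bp from its 5' end. This class, with 7764 genes of which 6315 are under 200 bases, was not among the small RNA genes of the rule. Of the 5 members T13C5.6 alone had such a gene within 500 bp, where 24.4% of IDR promoter peaks had one, and T13C5.6 alone had its summit inside one, where 14.8% did. Among the 13 rule genes the summit lay inside such a gene at ftt-2, T13C5.6 and spat-3, all on X. On X this held for 23.1% of IDR promoter peaks (33 of 143), and on the autosomes for 12.7% (72 of 567). At T13C5.6 the label of a coding promoter without a small RNA gene thus depends on leaving this class out, and the peak cannot be assigned to either gene. The sequence of C14F11.14 is shown because it holds, on its own strand, letters of the B box, the internal element through which RNA polymerase III genes of the tRNA type are recognized. The sequence is from the same genome and strand as the gene, and capitals mark GTTCNANNC.
C14F11.14: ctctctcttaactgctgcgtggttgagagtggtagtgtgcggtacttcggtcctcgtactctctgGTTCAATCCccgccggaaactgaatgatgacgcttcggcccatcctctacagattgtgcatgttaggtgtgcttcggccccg

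The match, GTTCAATCC, begins at base 66 of C14F11.14, at X:6207900-6207908, and lies 33 bp from the summit. The letters GTTCNANNC were searched on both strands within 50 bp of every summit, and this search was chosen after the sequence had been seen. They were found in 53.5% of the 226 nuclear IDR peaks with a tRNA gene within 500 bp, in 29.3% of the 75 with a snoRNA gene, and in 12.2% of all 1423. Of the 612 promoter peaks without a small RNA gene, 3.27% held them. Among those the share was 6.94% (5 of 72) where the summit lay inside an unclassified noncoding gene and 2.78% (15 of 540) elsewhere. T13C5.6 was the only rule gene with a match, and a match of letters does not show that polymerase III uses the site.

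The other 4 members held no such letters within 50 bp of the summit. In the 300 bases from 250 before to 50 after the 5' end, GTTCNANNC occurred in T13C5.6 and nmad-1, beside 8.74% of all protein-coding promoters. A shorter word was common to 4 of the 5 members. CGCACA, on either strand, lay within 50 bp of the summit at atx-2, tasp-1, T13C5.6 and nmad-1, and not at K12H4.5. It covered the summit base itself at atx-2, lay 6 bp from it at tasp-1 and 3 bp at T13C5.6, and occurred at nmad-1 both 3 and 22 bp away. The word was picked out by reading these sequences, so its count among them is no test. In the windows of the same length it occurred at 13.4% of all nuclear IDR summits, 6.64% of those near a tRNA gene and 18.5% of the 612 promoter summits without a small RNA gene. Of the 8 other rule genes, rpl-3, Y17G9B.5 and dnj-29 held it, or 37.5%. In the 300 bases from 250 before to 50 after the 5' end it occurred in the same 4 members and in 7.19% of all 19973 protein-coding promoters. At these 4 members those bases hold the letters from which the word was picked, so this count repeats the first.

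With the members left out, the place of the word could be described in peaks that had not drawn attention to it. In 41-base windows centred on the summit, 7.08% of the other 607 promoter peaks without a small RNA gene held CGCACA (43 peaks), against 1.24% in windows 200 bp to either side, a ratio of 5.73. By that difference it stood 9th among the 2080 possible words of 6 letters counted on both strands. The first was GCGCAC, with 9.39% at the summit and 0.741% away from it, which overlaps CGCACA by 5 letters. Within 50 bp of the summit GCGCAC occurred at atx-2, tasp-1 and nmad-1, beside 18.3% of the 612 promoter peaks, and at tasp-1 it lay 27 bp away, outside the 41-base window. Over all 1418 other nuclear IDR peaks the share of CGCACA was 5.78% at the summit and 1.06% away. Among the 612 promoter peaks without a small RNA gene, members included, 23.2% of the 306 stronger and 13.7% of the 306 weaker held the word within 50 bp. Base composition also changes around summits, as described next, and its part in these shares was not tested.

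**Figure D4:**
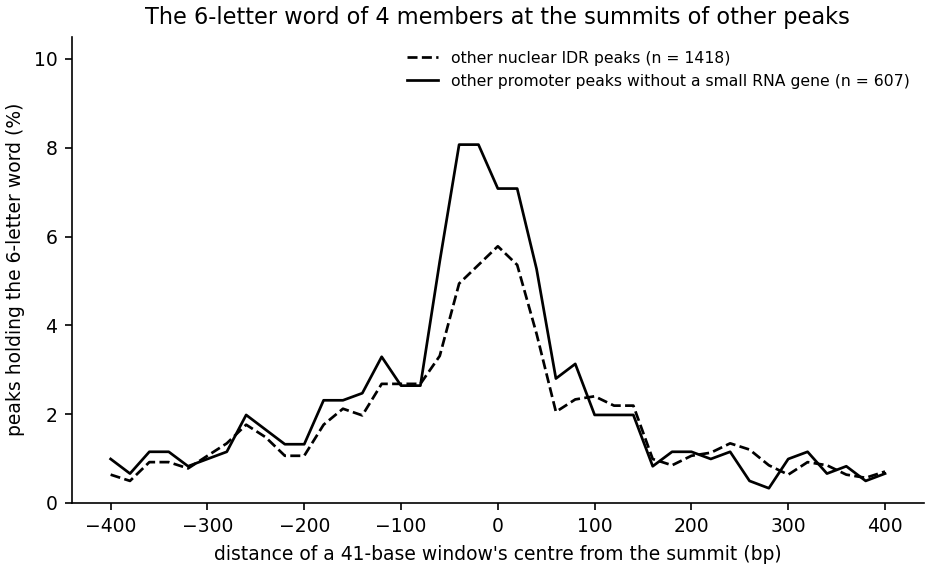
Share of peaks, in %, whose 41-base window holds CGCACA on either strand, along the distance in bp of the window's centre from the summit, for promoter peaks without a small RNA gene (solid, n = 607) and all nuclear IDR peaks (dashed, n = 1418), the 5 members left out. At the summit the shares are 7.08% and 5.78%, and they fall to 1.24% and 1.06% on average 200 bp away. The solid curve is highest just off the summit, at 8.07% in the windows at -40 and -20 bp.

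The G and C content under the summits was not the same in the 5 members. It was 60.4% at tasp-1 and 59.4% at atx-2, above 92.8% and 89.7% of IDR promoter peaks. It was 53.5% at T13C5.6, 46.5% at nmad-1 and 44.6% at K12H4.5, and the last of these was above 21.8% of IDR promoter peaks. Over these 101 bases it was higher in each member than in the flanks 150 to 500 bp away, which held 30.7% at K12H4.5, 34.4% at atx-2, 32.9% at tasp-1, 35.7% at T13C5.6 and 36.7% at nmad-1. Promoter peaks in general share this rise. In 51-base windows the median over the 710 IDR promoter peaks was 52.9% at the summit and 35.3% at 300 bp on either side. Over the 101 bases the members with the summit nearest the 5' end were the richest in G and C. With 100 bp on either side of the summit nmad-1 held 36.3%, slightly below its flanks. The order of the members also depended on the window, and in 51 bases tasp-1 held 54.9% at the summit and atx-2 64.7%. The rich stretch was narrow at nmad-1, which held 62.7% at the summit and 15.7% in the window 50 bp toward the gene, where the printed sequence is rich in T. At T13C5.6 it was broad, with 52.9% at the summit and 66.7% in the window 100 bp toward the gene.

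**Figure D5:**
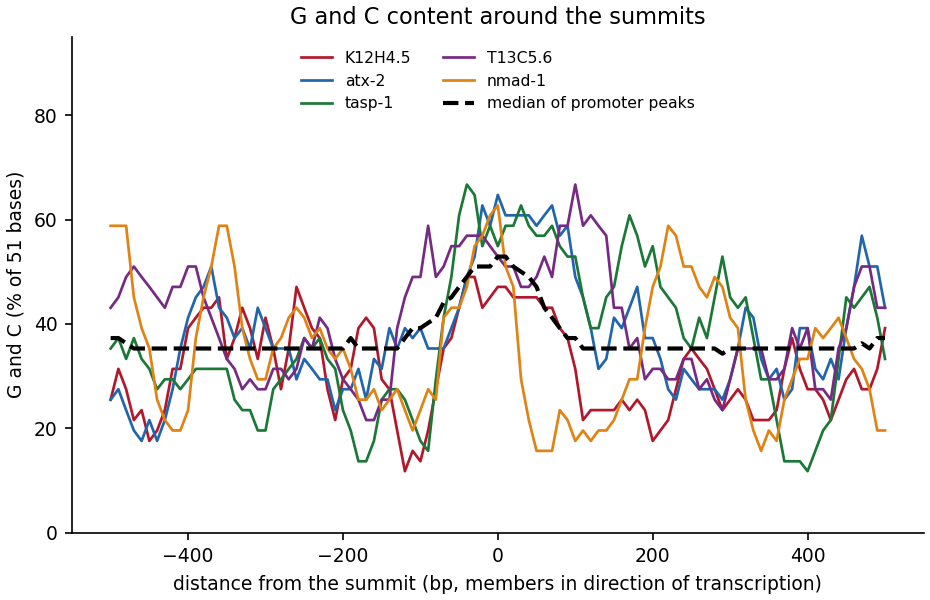
G and C content in % of 51-base windows, along the distance in bp from the summit and in the direction of transcription, for each member (colours) and as the median over the 710 IDR promoter peaks (dashed). At the summit the windows hold 64.7% at atx-2, 62.7% at nmad-1, 54.9% at tasp-1, 52.9% at T13C5.6 and 47.1% at K12H4.5, and the rise is narrowest at nmad-1.

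Known promoter words were searched on both strands in the same 300 bases of each promoter. At K12H4.5 these 300 bases lie wholly outside the peak, whose edge is 338 bp from the 5' end. At the other members they hold the summit. TATAAA, the core of the TATA box, was present in K12H4.5, T13C5.6 and nmad-1, beside 37.9% of all promoters. Within 50 bp of the summit it was at 0 of the 5, and at 3.27% of the 612 promoter summits without a small RNA gene. GGGCGG, the core of the GC box, was present in atx-2, tasp-1 and nmad-1, beside 7.83% of all promoters, and within 50 bp of the summit at atx-2 and tasp-1, beside 11.8% of the 612 promoter summits without a small RNA gene. These were also the sites with the highest G and C content over 101 bases. CCAAT was in none of the 5 promoters, beside 45.5% of all, and at the K12H4.5 summit, beside 14.1% of the 612. CACGTG, the E box, was in the K12H4.5 promoter, beside 5.82% of all, and at 0 of the 5 summits, beside 2.45% of the 612.

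The other words searched are common in promoters, apart from GCGCGAAA. GAGAG was in 3 promoters (39.9% of all), GATAA in 3 (57.6%), TTTTTTT in 3 (52.3%), TTTGAA in 1 (62.5%) and GCGCGAAA in 0 (1.14%). At the summits GAGAG lay at K12H4.5 and T13C5.6, beside 36.1% of the 612, and TTTTTTT at nmad-1, beside 8.82%. For GAGAG, 2 of 5 is near the share of promoter summits in general. A window without a word says only that these letters are not in it.

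Genes of the pathways of atx-2, tasp-1 and nmad-1 were then read for peaks of their own. Of 18 genes for RNA granule and poly(A) tail proteins, which work with or beside ataxin-2, 7 (38.9%) had an IDR summit in the promoter window, against the 4.69% of all protein-coding genes. The strongest were ain-1, for a microRNA silencing factor, with a signal of 352 and 186 and 169 in the replicates, and lsm-3, for an Sm-like protein, with 347 and 214 and 132. Next came pab-2, for a poly(A)-binding protein, with 260 and 147 and 110 in the replicates, 34 bp upstream of the gene. Then followed szy-20 with 224 (115 and 107) and gtbp-1 with 165 (81.7 and 79.2). The weakest were tiar-1 with 152 (75.7 and 74.9) and cgh-1, for a DEAD-box helicase of germ granules, with 149 (83.9 and 67.9). All 7 signals were below the 798 of nmad-1. At lsm-3, gtbp-1 and tiar-1 the summit was nearer to the 5' end of another gene, which was Y62E10A.23, K08F4.3 and lelo-4 in turn. With a window from 500 bp upstream the count was 4, and it was also 4 with the 711 strongest peaks. The lists here and in the next paragraph were chosen with earlier results of these data known. The count is thus a description, with no test.

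The set1/MLL complexes and TFIIA include relatives of taspase targets in mammals, but not every gene listed for them is such a relative. Of the 11 genes found under their names, 2 (18.2%) had a summit. These were set-16, an MLL-type methyltransferase gene, with a signal of 247 and 134 and 113 in the replicates, and utx-1, for a histone demethylase, with 159 and 79.0 and 79.9. The set-16 summit was nearer to the 5' end of drr-2. With 11 genes in the list the share rests on 2 peaks, both well below that of tasp-1. Of 7 genes listed around adenine methylation and the AlkB family, not all of them such enzymes, 0 had an IDR summit in the promoter window. These were damt-1, alkb-1, alkb-7, alkb-8, mett-10, metl-5 and spr-5. With 4.69% of all protein-coding genes holding a summit, 0 of 7 is near the background and is not a result about the list.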

How the data were processed

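Peaks of M03D4.4 were deposited for 2 biological replicates and for their pool, per the labels and the file headers. The authors called relaxed lists of 29978 to 29985 nuclear peaks with a control, and derived the IDR list from them. Each peak has a deposited signal, a −log10 q-value and a summit offset. How reads were aligned, which caller and IDR cutoff were used and how signal was scaled is not given in the sources used here. All 1423 nuclear IDR peaks carry the interval, summit and signal of a pooled peak.

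From these ce11 lists the ranks, widths and distances were computed against Ensembl release 115 on WBcel235, with sequences and product names from RefSeq. Lists on the older ce10 build were not used here. Peaks of different lists were matched where the overlap covered at least 50% of either peak. The genes named are the 5 members, their nearest neighbours, list genes with a summit and the rule genes next in signal. Further neighbours, the count of downstream genes and 3 sets of letters (the CGCACA word, the GCGCAC word and the B box letters) were chosen after seeing the values. The members and lists were chosen with earlier results of these data known. No test was made, and the replicates' spread may be partly technical. The steps were tested on simulated data. Python 3.11.15, NumPy 2.4.6, pandas 2.3.3 and Matplotlib 3.10.9 were used.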

Additional observations from a re-analysis of the deposited data

How the results depend on the processing

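All 5 members stayed among the 70 strongest nuclear peaks in each replicate alone. The pooled list gave them the same ranks as the IDR list, which takes its signals from it. The replicates are parts of the pooled signal that the rule used, so neither list is an independent check. The genes meeting the rule numbered 13, and 10 with a window from 500 bp upstream, which leaves out K12H4.5, whose summit is 526 bp away. They also numbered 10 with unclassified noncoding RNA genes counted as small RNA genes, an alternative added after seeing the data, which leaves out T13C5.6. In each replicate alone they numbered 15, of which 12 are shared with the 13 and all 5 members are among them. Divergent neighbours were 3 within 1000 bp, 1 within 500 bp and 4 within 2000 bp. The RNA granule list had 7 genes with a summit, 4 with the window from 500 bp upstream, 4 with the 711 strongest peaks and 5 to 6 with 1 replicate alone. The set1/MLL list had 2, and 1 with those peaks. With 100 bp on either side of the summit, G and C content was 40.3% at K12H4.5, 54.2% at atx-2, 53.2% at tasp-1, 36.3% at nmad-1 and 52.7% at T13C5.6. At nmad-1 that is below its flanks of 36.7%, so its rise over the flanks is lost, and the order of tasp-1 and atx-2 and that of nmad-1 and K12H4.5 turned round. With the summits of 1 replicate it was 45.5% at K12H4.5, 58.4% to 60.4% at tasp-1 and 42.6% to 46.5% at nmad-1. CGCACA was found at 4 summits also within 20 bp and with the summits of either replicate, settings added after seeing the data. No paired analysis was possible because the design has 1 group and no result comes from a test. The unknown depth limits what can be said of weak peaks.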
